A study of Homo sapiens with 6 samples.

Results

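The BCL2 family of apoptosis regulators was followed as 10 genes listed by symbol, and all 10 were found among the 30017 genes of the count table. By known function, 4 of them are anti-apoptotic (*BCL2*, *BCL2L1*, *MCL1* and *BCL2A1*) and 6 are pro-apoptotic. The pro-apoptotic genes comprise the effectors *BAX* and *BAK1* and the BH3-only genes *BCL2L11*, *BID*, *PMAIP1* and *BBC3*. The list follows the names and textbook roles of the genes, and it was chosen with earlier results of these data known. It is not the complete family: 13 other BCL2 family genes are given separately below.

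RNA-seq was performed to follow gene expression as B cells convert into macrophages in the presence or absence of CTCF. All 6 libraries come from BLaER1-CTCF-mAID, a single subclone of a human B cell leukemia line that carries an inducible *CEBPA* transgene and a CTCF protein fused to an auxin-inducible degron. The 0 h group (2 libraries) was not treated. The 96 h control group (2 libraries) was cultured for 96 h with 17β-estradiol, IL-3 and CSF-1, the factors that start transdifferentiation, and the 96 h CTCF-depleted group (2 libraries) received the same factors together with the auxin indole-3-acetic acid (IAA), which triggers degradation of CTCF. No library comes from degron-free cells treated with IAA, and an effect of IAA itself and one of CTCF loss cannot be told apart. Total counts were 9273470 and 12718780 at 0 h, 11695516 and 11267539 in 96 h control and 11001175 and 10911481 in CTCF-depleted libraries.

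*CTCF* transcripts measured 230.3 and 213 CPM (counts scaled to the size of each library with TMM factors) at 0 h, 181 and 173 CPM in 96 h control and 191 and 189 CPM in CTCF-depleted libraries. The depleted libraries lay above the control libraries; the degron acts on the protein, and transcript levels do not measure the loss of protein. *CEBPA* stood between 289.7 and 336 CPM in the 6 libraries, and these counts do not separate the transgene from the endogenous gene. The 12 B cell markers checked against the labels summed to 3971 and 3956 CPM at 0 h, 441 and 449 CPM in control and 455 and 469 CPM in depleted libraries, with *EBF1* as their most abundant gene. The 12 macrophage markers, led by *LYZ*, summed to 84.6 and 76.3 CPM at 0 h, 6863 and 6628 CPM in control and 5945 and 5847 CPM in depleted libraries. Single markers moved apart within these sums upon CTCF depletion: *CD22*, *RAG1* and *VPREB1* had log2 fold changes of 1.47, -1.94 and -0.89, and *ITGAM*, *MRC1* and *CYBB* of 1.15, -1.33 and -0.93. Markers of other blood cells summed to less: 5 granulocyte genes, led by *CSF3R*, reached 86.1 CPM in a 96 h control library, 4 NK cell genes, led by *NKG7*, reached 35.9 CPM, and 5 T cell genes, led by *CD2*, reached 5.34 CPM with *CD3D* and *CD3G* at 0 throughout. The 5 erythroid genes were at 0 in every library, and the part of the other marker genes in the results below was not tested.

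BCL2 family proteins decide whether the outer membrane of mitochondria stays intact. Anti-apoptotic members hold the effectors BAX and BAK in check, BH3-only proteins bind and neutralize the anti-apoptotic members or activate the effectors directly, and active effectors form pores that release cytochrome c and start caspase activation. Which anti-apoptotic members a cell depends on differs between blood cell types and was not measured here.

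A gene was called when its adjusted p was under 0.01 and its log2 fold change lay beyond 0.6 in either direction, by edgeR's quasi-likelihood test with Benjamini-Hochberg adjustment over the 14758 genes that passed a filter on low counts. All 10 members passed this filter, but *BCL2A1* passed only through the CTCF-depleted libraries, where it is high, since 0 of the 2 control libraries and 0 of the 2 libraries at 0 h reached the filter level of 0.898 CPM. Its calls in all 3 comparisons rest on that entry, and counts are also given without it, a choice made after seeing the data. In 96 h control against 0 h libraries, 5 of the 10 members were higher and 2 lower, compared to 25.4% and 22.9% of all genes tested. Without *BCL2A1*, 4 of 9 were higher and 2 lower. By role, 4 of the 6 pro-apoptotic members were higher and 0 lower (1 was lower at an unadjusted p below 0.05), whereas 1 of the 4 anti-apoptotic members (*BCL2A1*) was higher and 2 were lower (DESeq2 gave the same 4 counts). The median log2 fold change was 0.72 over the pro-apoptotic and -0.21 over the anti-apoptotic members, compared to 0.02 over all genes tested. Without *BCL2A1*, the median over the other 3 anti-apoptotic members was -1.02. In CTCF-depleted against 96 h control libraries, 1 member was higher and 1 lower, compared to 5.41% and 7.03% of all genes tested, and the median over the 10 members was -0.06, compared to -0.03 over all genes. Without *BCL2A1*, 0 of 9 members were higher upon CTCF depletion in edgeR (0 in DESeq2, and 3 at an unadjusted p below 0.05). By role, 0 of the 6 pro-apoptotic members were higher (0 in DESeq2, and 2 at an unadjusted p below 0.05) and 1 lower, and 1 of the 4 anti-apoptotic members (*BCL2A1*, without an adjusted p in DESeq2) was higher and 0 lower (0 in DESeq2, and 1 at an unadjusted p below 0.05). This comparison equals the difference between the effects of conversion without and with CTCF. In CTCF-depleted against 0 h libraries, 4 members were higher and 2 lower, compared to 27.2% and 25.2% of all genes, with a median of 0.57 compared to 0.02. Without *BCL2A1*, 3 of 9 were higher and 2 lower. By role, 2 of the 6 pro-apoptotic members were higher and 0 lower (0 in DESeq2, and 1 at an unadjusted p below 0.05), and 2 of the 4 anti-apoptotic members were higher and 2 lower, with medians of 0.57 and -0.11 (-1.05 over the 3 anti-apoptotic members other than *BCL2A1*). Adjusted over the list alone, the counts of higher and lower members were 5 and 2, 1 and 1, and 4 and 2 in these comparisons, the same as over all genes tested. The comparisons with 0 h share the 0 h libraries, and their values are given side by side only. With 2 libraries in each group, the smallest p of an exact two-sided permutation test is 0.333, and the p-values given here rely on edgeR's estimate of spread across genes. In bulk RNA, fewer cells that express a gene and less RNA in each cell cannot be told apart.

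**Figure D1:**
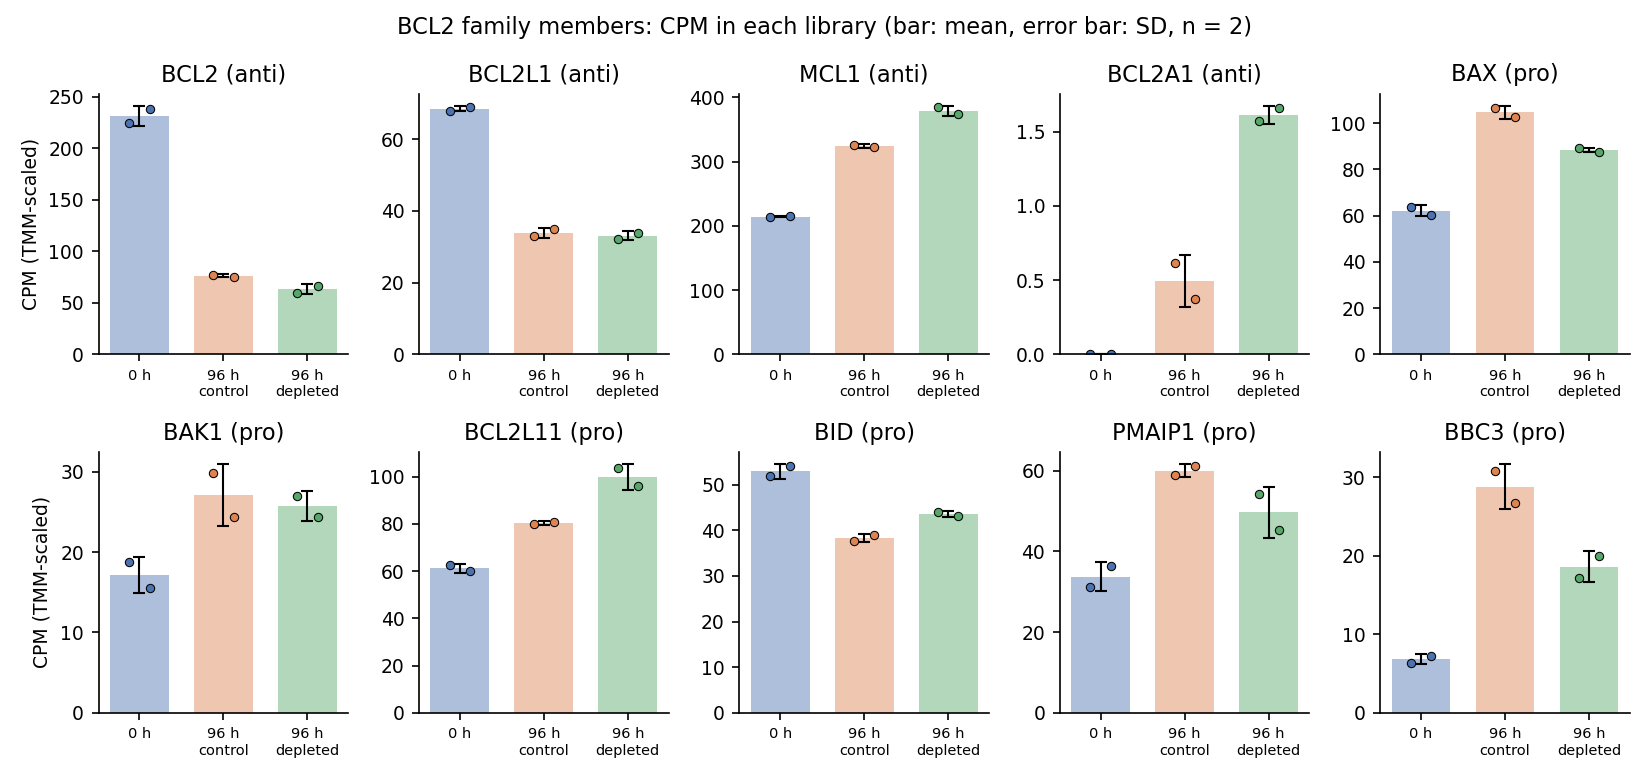
CPM of each of the 10 members in the 6 libraries, with points for libraries, bars for the mean and error bars for the SD (n = 2). *BCL2* and *BCL2L1* are high in both 0 h libraries, *MCL1* stands at 214, 324 and 379 CPM on average, and *BBC3* is highest in the 96 h control libraries. Of the comparisons, *MCL1* passed the thresholds only in CTCF-depleted against 0 h libraries.

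Of the anti-apoptotic members, *BCL2* (chromosome 18, 63123346 to 63320128, minus strand, hg38), which encodes the founding member of the family, had 2181 and 3181 counts at 0 h, while control libraries held 876 and 814 and CTCF-depleted ones 648 and 724. These counts correspond to 225 and 238 CPM, to 77.2 and 75.3 CPM, and to 59.9 and 66.6 CPM, so that both 0 h libraries were high and no 2 groups overlapped. *BCL2* fell over conversion, with a log2 fold change of -1.60 (adjusted p = 1.42e-31 by edgeR, standard error 0.06), or 3.04-fold. Relative to control, the log2 fold change of -0.27 upon CTCF depletion (adjusted p = 0.0010 by edgeR, standard error 0.07) did not reach the fold change threshold, and relative to 0 h it was -1.87. Without CTCF-depleted replicate 1 the value upon depletion was -0.16 (adjusted p = 0.170).

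*BCL2L1* (chromosome 20, 31664452 to 31723989, minus strand), the gene of BCL-XL, measured 68.0 and 69.1 CPM at 0 h, 33.0 and 34.9 CPM in control and 32.3 and 34.0 CPM in depleted libraries. Both 0 h libraries lay above all 4 libraries at 96 h, whereas control and depleted libraries overlapped. The gene fell over conversion with a log2 fold change of -1.02 (adjusted p = 2.53e-17 by edgeR, standard error 0.08). Between depleted and control libraries, the log2 fold change was -0.03, with a 95% confidence interval from -0.21 to 0.14, and its sign changed with the scaling (0.00 with library totals alone). The annotated lncRNA gene *ABALON* lies on the opposite strand over 41.3% of the exon bases of *BCL2L1*, the libraries were made with a stranded kit, and the strand setting of the counting is not given in the sources used here.

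*MCL1* (chromosome 1, 150560895 to 150579738, minus strand), which encodes a short-lived protein that holds BAK in check, measured 213 and 215 CPM at 0 h, 326 and 322 CPM in control and 385 and 374 CPM in depleted libraries. All 3 groups were separate, and the depleted libraries were highest. Over conversion the log2 fold change was 0.60 (0.598; adjusted p = 2.94e-17 by edgeR, standard error 0.05), just short of the threshold. It passed the threshold without 96 h control replicate 2 (0.61, adjusted p = 2.18e-09), with at least 10 counts in every library (0.604) and with only the 4 libraries compared (0.61). Relative to control, the depleted libraries had a log2 fold change of 0.23 (adjusted p = 4.65e-05 by edgeR, standard error 0.05), below the fold change threshold. Relative to 0 h, *MCL1* was called higher in depleted cells, with a log2 fold change of 0.82 (adjusted p = 2.35e-23 by edgeR, standard error 0.05).

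*BCL2A1* (chromosome 15, 79960892 to 79971196, minus strand), the gene of the anti-apoptotic protein BFL-1, was near the detection limit. It had 0 and 0 counts at 0 h, while control libraries held 7 and 4 and CTCF-depleted ones 17 and 18, or 0.617 and 0.370 CPM and 1.57 and 1.66 CPM at 96 h. The 3 groups were separate, with the depleted libraries highest. A floor of 3 counts was set in each 0 h library (0.309 and 0.225 CPM, counting error only). The mean of *BCL2A1* stood 1.85-fold above the mean floor in control and 6.05-fold above it in depleted libraries. Counting error at 96 h is not included, so that these values are not strict lower bounds. Upon CTCF depletion it passed the thresholds, in a test it entered through the depleted libraries alone, with a log2 fold change of 1.68 (adjusted p = 0.0090 by edgeR, standard error 0.53, higher in 2 of 2 libraries). This call was lost when any of the 6 libraries was left out, with adjusted p-values between 0.0131 and 0.125, log2 fold changes from 1.40 to 2.12, and DESeq2 gave no adjusted p for the gene. The call over conversion was lost without 0 h replicate 1 (adjusted p = 0.0134), 0 h replicate 2 (0.0296) and 96 h control replicate 1 (0.0227).

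Of the effectors, *BAX* (chromosome 19, 48954815 to 48961798, plus strand) measured 63.9 and 60.5 CPM at 0 h, 107 and 103 CPM in control and 89.2 and 87.7 CPM in depleted libraries. The groups did not overlap, and the control libraries were highest. *BAX* rose over conversion with a log2 fold change of 0.76 (adjusted p = 9.17e-15 by edgeR, standard error 0.07). The difference between depleted and control libraries was -0.24 on the log2 scale (adjusted p = 0.0024 by edgeR, standard error 0.07), below the fold change threshold, and relative to 0 h it was 0.51. With 1 library left out, the value upon depletion ranged from -0.24 to -0.18. *BAK1*, which encodes the other effector, measured 18.8 and 15.6 CPM at 0 h, 29.8 and 24.4 CPM in control and 27.01 and 24.4 CPM in depleted libraries. Both 0 h libraries were below all libraries at 96 h, and control and depleted libraries overlapped. The log2 fold change of *BAK1* was 0.68 over conversion (adjusted p = 6.40e-07 by edgeR, standard error 0.12) and 0.60 (0.596, adjusted p = 8.19e-06) in depleted against 0 h libraries, of which the first passed the threshold. The second value passed without 0 h replicate 1 (0.75), 96 h control replicate 2 (0.63) or CTCF-depleted replicate 2 (0.70, adjusted p = 4.63e-06). It also passed with RLE normalization (0.601), at least 10 counts in every library (0.62) and only the 4 libraries compared (0.6002). The first call was lost without 0 h replicate 2 (0.49, adjusted p = 0.0022) and without 96 h control replicate 1 (0.49, adjusted p = 0.0031). It was also lost with library totals alone (0.56) and with glmTreat (adjusted p = 0.215), so that 3 of the 6 pro-apoptotic members were then higher over conversion.

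Of the BH3-only members, *BBC3* (chromosome 19, 47220822 to 47232766, minus strand), the gene of PUMA, which binds all anti-apoptotic members, had 62 and 97 counts at 0 h, while control libraries held 349 and 289 and CTCF-depleted ones 186 and 217. These correspond to 6.39 and 7.27 CPM, to 30.8 and 26.7 CPM, and to 17.2 and 20.0 CPM, and the depleted libraries lay between the other groups without overlap. *BBC3* rose over conversion with a log2 fold change of 2.06 (adjusted p = 4.32e-20 by edgeR, standard error 0.14), or 4.17-fold. Upon CTCF depletion it was called lower than in control, with a log2 fold change of -0.63 (adjusted p = 1.36e-05 by edgeR, standard error 0.12, lower in 2 of 2 libraries), and relative to 0 h the depleted libraries remained 2.70-fold higher. The call was lost without any of 4 libraries: the log2 fold change was -0.60 without 0 h replicate 1 or 2, and -0.49 without 96 h control replicate 1 and without CTCF-depleted replicate 1, with adjusted p-values between 2.37e-05 and 0.0088.

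*PMAIP1*, the gene of NOXA, which binds MCL1, measured 31.2 and 36.3 CPM at 0 h, 58.8 and 61.1 CPM in control and 54.1 and 45.2 CPM in depleted libraries. The control libraries were highest and the groups were separate. *PMAIP1* rose over conversion with a log2 fold change of 0.82 (adjusted p = 1.50e-12 by edgeR, standard error 0.09). The values of -0.27 in depleted against control (adjusted p = 0.0066) and 0.55 in depleted against 0 h libraries did not reach the fold change threshold, and the second of them passed it without 0 h replicate 2 (0.66) or CTCF-depleted replicate 2 (0.70). The first was -0.12 without CTCF-depleted replicate 2 (adjusted p = 0.372).

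*BCL2L11*, the gene of BIM, a BH3-only protein that binds all anti-apoptotic members, measured 62.5 and 59.9 CPM at 0 h, 79.8 and 80.9 CPM in control and 104 and 95.9 CPM in depleted libraries. It was higher in each group in that order, without overlap. The log2 fold change was 0.39 over conversion (adjusted p = 2.50e-06 by edgeR, standard error 0.07) and 0.31 upon CTCF depletion (adjusted p = 2.03e-04 by edgeR, standard error 0.07), both below the fold change threshold. The antisense gene *MIR4435-2HG* covers 10.8% of its exon bases. In depleted against 0 h libraries *BCL2L11* was called higher, with a log2 fold change of 0.71 (adjusted p = 2.47e-13 by edgeR, standard error 0.07), a call that was lost with glmTreat (adjusted p = 0.0464). *BID*, which links death receptor signalling to mitochondria once caspases cleave its protein, measured 51.8 and 54.0 CPM at 0 h, 37.7 and 39.0 CPM in control and 44.03 and 43.1 CPM in depleted libraries. The groups were separate with the control libraries lowest, and the log2 fold changes of -0.47, 0.18 and -0.28 over conversion, upon CTCF depletion and relative to 0 h did not pass the thresholds.

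**Figure D2:**
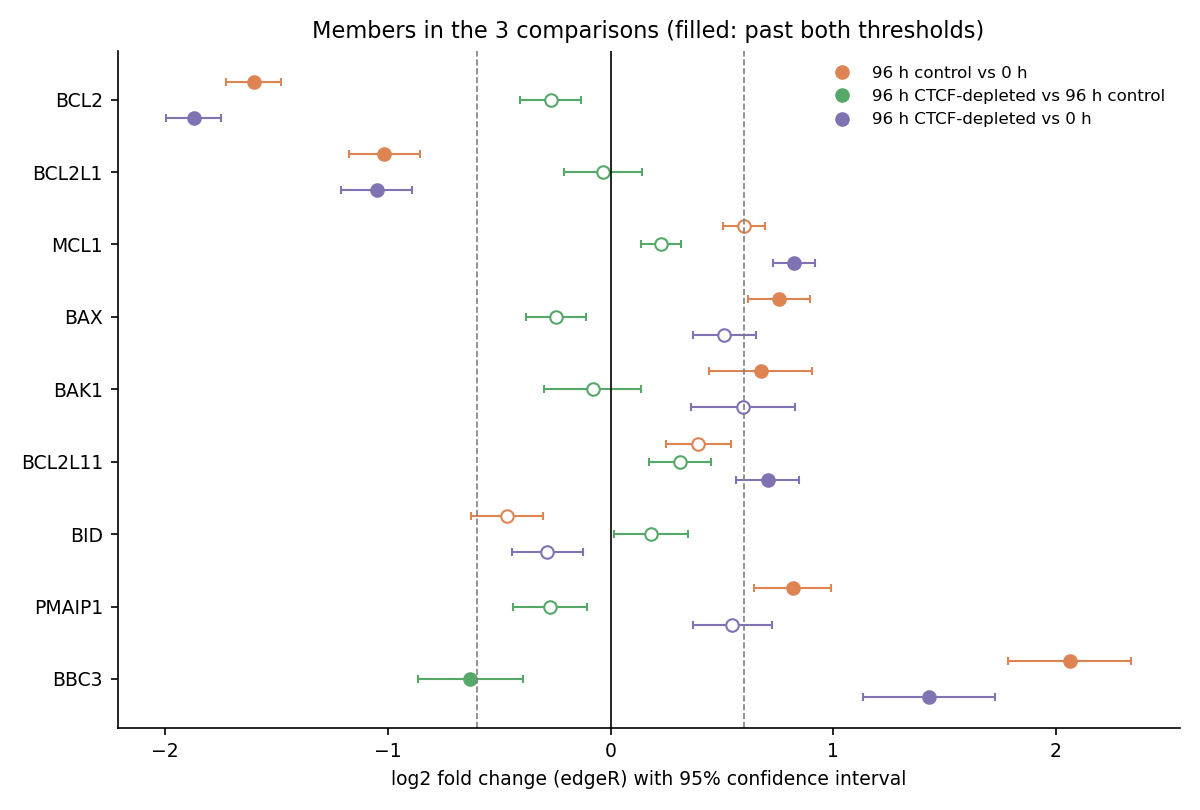
Log2 fold change of 9 members in the 3 comparisons, with 95% confidence intervals from edgeR; filled points passed both thresholds and dashed lines mark the fold change threshold of 0.6. *BCL2A1* is not drawn because its 0 h counts are 0. *BCL2* and *BCL2L1* lie at or below -1.02 against 0 h, and upon CTCF depletion *BBC3* at -0.63 is the filled point among these 9.

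Levels of different genes were compared as CPM per kilobase of annotated exon, and their order depends on this scaling: without it 19 of 30 ranks changed, and *BCL2* (232 CPM) stood above *MCL1* (214 CPM) at 0 h. With the length of the longest coding transcript in place of all exons, 8 of 30 ranks changed. Per length at 0 h, *MCL1* had the highest level with 34.4 ± 0.159 CPM per kilobase (SD, n = 2), followed by *BAX* with 24.0 ± 0.936, *BCL2* with 18.4 ± 0.762, *BCL2L1* with 16.3 ± 0.180 and *PMAIP1* with 15.4 ± 1.63. The libraries of *BCL2L1* and *PMAIP1* overlapped, whereas those of the other neighbours in this order did not. In 96 h control libraries the order opened with *MCL1* at 52.1 ± 0.464, *BAX* at 40.5 ± 1.07 and *PMAIP1* at 27.4 ± 0.728 CPM per kilobase, and *BCL2L1* and *BCL2* stood at ranks 8 and 9 with 8.08 ± 0.321 and 6.05 ± 0.108. Here the neighbours *BAK1* and *BCL2L11*, and *BBC3* and *BID*, overlapped. In CTCF-depleted libraries no neighbours overlapped, with *MCL1* at 60.9 ± 1.23, *BAX* at 34.2 ± 0.402 and *PMAIP1* at 22.7 ± 2.89 CPM per kilobase in the lead and *BBC3* at rank 8 with 5.84 ± 0.614. *BCL2A1* was last in each group.

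Summed over the 4 anti-apoptotic members, the length-scaled level was 68.3 and 69.9 CPM per kilobase at 0 h, 67.0 and 66.4 in control and 75.8 and 75.1 in depleted libraries. The depleted libraries were highest and the control libraries lowest, without overlap between groups, whereas without length scaling the 0 h libraries were highest (506 and 522 CPM, compared to 478 and 476 CPM in depleted libraries). The sum over the 6 pro-apoptotic members was 70.5 and 70.4 at 0 h, 112 and 108 in control and 102 and 95.8 CPM per kilobase in depleted libraries. Both sums were thus about equal at 0 h, and at 96 h the pro-apoptotic sum was the larger one in all 4 libraries, which holds per length only: without length scaling the anti-apoptotic share was 56.2% in control and 59.4% in depleted libraries on average. Anti-apoptotic members held 49.2% and 49.8% of the total over all 10 members at 0 h, 37.5% and 38.1% in control and 42.6% and 43.9% in depleted libraries. The 3 groups did not overlap in this share, and the depleted libraries lay between the others. Differences in this share were not tested. The sums, the share and the ranks above cover the 10 members alone. They leave out other family genes, such as *BMF* and *BCL2L2* with means of 163 and 36.1 CPM in control, and could change with them.

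Within the anti-apoptotic sum, *MCL1* made up 50.2% and 49.4% of it at 0 h, 78.2% and 77.9% in control and 81.5% and 79.98% in depleted libraries. The share of *BCL2* was 26.1% and 27.04% at 0 h, 9.14% and 8.99% in control and 6.27% and 7.03% in depleted libraries. The groups were separate for both genes, with *MCL1* highest and *BCL2* lowest in the depleted libraries. Without length scaling the mean share of *BCL2* was 45.0%, 17.5% and 13.3% in the 3 groups and that of *MCL1* 41.6%, 74.5% and 79.5%, so that *BCL2* was then the larger one at 0 h. These shares refer to transcripts and not to proteins.

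**Figure D3:**
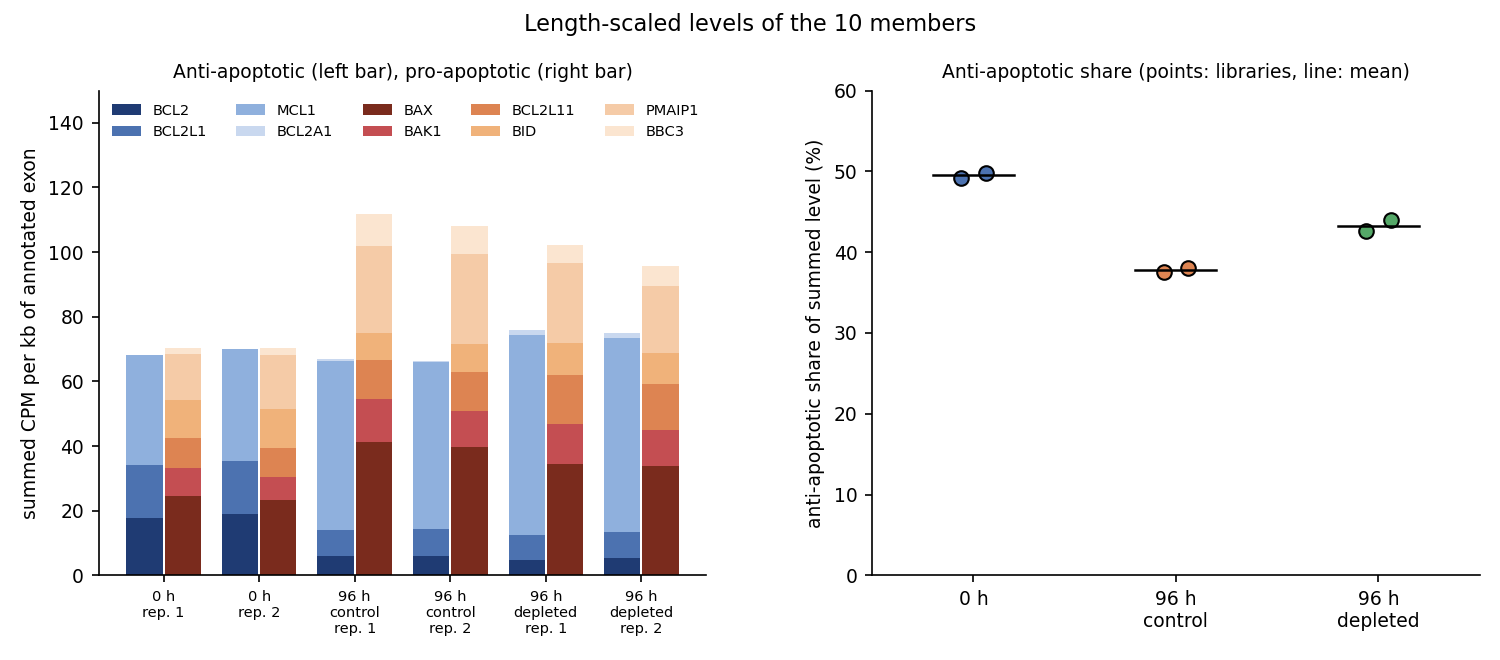
Length-scaled levels of the 10 members in each library as stacked bars (left panel, CPM per kilobase of annotated exon, anti-apoptotic members in the left bar and pro-apoptotic members in the right bar of each pair) and the anti-apoptotic share in percent (right panel, points for libraries, line for the mean). The share falls from 49.5% at 0 h to 37.8% in control and stands at 43.3% in CTCF-depleted libraries on average; without length scaling it is 68.7%, 56.2% and 59.4%.

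Sequences upstream of the start site are shown for 3 members: *BCL2L1*, which fell over conversion, and *BCL2A1* and *BBC3*, which passed the thresholds upon CTCF depletion. *BCL2L1* itself had a log2 fold change of -0.03 upon CTCF depletion. *BCL2* also fell over conversion, but its window lies within annotated exon. *BAX*, *BAK1* and *PMAIP1*, also called over conversion, are not shown. The call of *BCL2A1* was lost without any of the 6 libraries and rests on its entry through the depleted libraries, and that of *BBC3* was lost without any of 4. RefSeq sequences (GRCh38.p14) were matched for 9 of the 10 members; *MCL1* is the other one. The 250 bases before each start were searched on both strands for AGGNGGC (a CTCF core), TTGCNNAA (C/EBP) and GAGGAAGT (PU.1), which are held by 31.5%, 9.05% and 2.17% of the 35116 upstream windows in the table. Bases that the annotation counts as exon are left out, so that *BCL2L1* is shown over 224 bases (chr20:31723990-31724213), *BCL2A1* over 250 bases (chr15:79971197-79971446) and *BBC3* over 151 bases (chr19:47232767-47232917), each on the minus strand, in lower case with matches in capitals.
BCL2L1: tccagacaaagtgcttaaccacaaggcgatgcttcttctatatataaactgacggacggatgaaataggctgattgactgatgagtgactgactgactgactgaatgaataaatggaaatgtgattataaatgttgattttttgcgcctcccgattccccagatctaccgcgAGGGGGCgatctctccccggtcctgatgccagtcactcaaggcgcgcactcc
BCL2A1: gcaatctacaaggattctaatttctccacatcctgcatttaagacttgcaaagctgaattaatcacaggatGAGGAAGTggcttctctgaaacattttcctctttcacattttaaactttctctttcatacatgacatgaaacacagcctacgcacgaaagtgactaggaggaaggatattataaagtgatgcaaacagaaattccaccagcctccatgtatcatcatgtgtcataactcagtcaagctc
BBC3: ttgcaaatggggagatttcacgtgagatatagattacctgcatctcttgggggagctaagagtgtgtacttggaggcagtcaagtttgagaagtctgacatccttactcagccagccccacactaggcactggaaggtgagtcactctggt
The capitals mark a match to the CTCF core that begins 78 bases before the start of *BCL2L1* and a match to the PU.1 letters that begins 179 bases before the start of *BCL2A1*. The window of *BBC3* holds none of the 3 motifs, and those of *BAX*, *BAK1*, *BCL2L11*, *BID* and *PMAIP1* also hold none, whereas *BCL2* holds 1 match to the CTCF core and a further start of *BCL2L1*, inside its annotated exons, has 4. Positions refer to the starts in the RefSeq table. A match describes these letters and is no evidence of binding.

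The tested genes next to *BCL2A1* and *BBC3* did not pass the thresholds in depleted against control libraries. Beside *BCL2A1*, *ZFAND6* (chromosome 15, 80059568 to 80138393) had 51.0 and 57.6 CPM in control and 51.1 and 48.5 CPM in depleted libraries, and *C15orf37* went from counts of 20 and 19 in control to 17 and 5 in depleted libraries. Beside *BBC3*, *SAE1* (chromosome 19, 47113274 to 47210636) and *CCDC9* (chromosome 19, 47255980 to 47273701) had log2 fold changes of -0.45 and 0.38 (adjusted p = 7.84e-08 and 8.80e-04 from edgeR), short of the fold change threshold. By the distance between centred log2 CPM profiles over the 6 libraries, the nearest genes to *BBC3* among those with at least 5 CPM on average were *LOC100129550* (0.239), *CPNE8* (0.283) and *AGTPBP1* (0.284). For *BCL2A1* the same measure gave *PLEKHA1*, *RGS2* and *FBXO6*. Its counts at 0 h are 0, so that its log2 profile there depends on the count added before logs were taken. *BCL2A1* also entered the test through the depleted libraries alone, and no exact distance or rank is given for these 3 genes.

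Of the 13 other BCL2 family genes, 9 passed the filter on low counts, whereas *BCL2L10*, *BOK*, *HRK* and *BCL2L14* did not and had at most 1 count in any library. Over conversion 3 of the 9 were higher (*BMF*, *BCL2L2* and *BNIP3L*) and 3 lower (*BAD*, *BIK* and *BCL2L12*), compared to the 25.4% and 22.9% of all genes tested, which also apply to the lists that follow. By known function *BCL2L2* is anti-apoptotic, and *BMF*, *BAD* and *BIK* are BH3-only genes. *BCL2L2* (log2 fold change 0.996), *BAD* (-0.78) and *BIK* (-4.06) thus went against the split by role among the members, and *BMF* (3.45) went with it. *BIK* passed the filter only through the 0 h libraries, where it is high (26 and 12 counts, and 1, 1, 1 and 2 at 96 h). The call of *BAD* was lost without 96 h control replicate 2 (-0.57) and with glmTreat (adjusted p = 0.124). *BNIP3* (-0.59) passed the threshold with RLE normalization (-0.60), with library totals alone (-0.71) and without a filter (-0.63). It also passed without 0 h replicate 2 (-1.0003), 96 h control replicate 1 (-0.63) or CTCF-depleted replicate 1 (-0.63). Without 0 h replicate 1 it was -0.20 (adjusted p = 0.169), the 0 h libraries of *BNIP3* being at 45.4 and 26.7 CPM. Genes on the other strand overlap 23.7% of the exon bases of *BAD* and 25.9% of those of *BCL2L12*. *BMF*, which encodes a BH3-only protein, measured 15.0 and 14.8 CPM at 0 h, 158 and 168 CPM in control and 93.8 and 96.9 CPM in depleted libraries. It followed the same order as *BBC3* without overlap, with log2 fold changes of 3.45 over conversion (adjusted p = 1.04e-41 by edgeR, standard error 0.08) and -0.77 upon CTCF depletion (adjusted p = 2.12e-15 by edgeR, standard error 0.06). *BMF* lost its call upon CTCF depletion with glmTreat (adjusted p = 0.0195). Upon CTCF depletion, 0 of the 9 genes were higher (0 in DESeq2 as well, and 0 at an unadjusted p below 0.05) and 3 were lower in edgeR, *BMF*, *BNIP3* and *BNIP3L*, of which DESeq2 called 1. Of all genes tested, 5.41% were higher and 7.03% lower, which also apply to the lists that follow. *BNIP3* and *BNIP3L*, which act in removal of mitochondria, measured 23.5 and 23.3 CPM and 162 and 160.1 CPM in control, and 14.0 and 12.1 CPM and 106 and 104 CPM in depleted libraries. The log2 fold changes were -0.84 and -0.61 (adjusted p = 5.40e-06 and 6.01e-11 from edgeR), and the call of *BNIP3L* was lost when any of the 6 libraries was left out (from -0.59 to -0.57). It was also lost with RLE normalization, library totals alone, no filter, at least 10 counts in every library and only the 4 libraries compared. With glmTreat, the calls of *BNIP3* (adjusted p = 0.190) and *BNIP3L* upon CTCF depletion were lost.

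Downstream of the family, 3 of the 15 apoptosome and caspase genes were higher and 4 lower over conversion, with log2 fold changes of 1.73 for *APAF1* and -0.84 for *CYCS*, which encodes cytochrome c. Of the 3 higher ones, *CASP10* passed the filter only through the libraries at 96 h. Upon CTCF depletion 0 of the 15 passed the thresholds in edgeR and 0 in DESeq2, and 2 were higher and 1 lower at an unadjusted p below 0.05. Of the 6 inhibitor of apoptosis genes, 2 were higher and 1 lower over conversion, and 1 was higher and 1 lower upon CTCF depletion. *BIRC2* (cIAP1) measured 45.6 and 46.0 CPM in control and 72.2 and 70.6 CPM in depleted libraries, and *BIRC5* (survivin) measured 50.7 and 45.9 CPM and 32.8 and 30.6 CPM. *BIRC2* lost its call over conversion with library totals alone (0.596) and with glmTreat (adjusted p = 0.0706). Upon CTCF depletion it lost its call with glmTreat (adjusted p = 0.861). The call of *BIRC5* was lost without 0 h replicate 1 (-0.57), 0 h replicate 2 (-0.57), 96 h control replicate 1 (-0.50) or CTCF-depleted replicate 2 (-0.53). It was also lost with RLE normalization (-0.59), library totals alone (-0.57), no filter (-0.57), at least 10 counts in every library (-0.59) and only the 4 libraries compared (-0.57). In the death receptor pathway, 7 of 8 genes were higher and 0 lower over conversion (0 lower in DESeq2, and 0 at an unadjusted p below 0.05), with a median log2 fold change of 1.77. *FAS* measured 2.27 and 2.40 CPM at 0 h, 64.7 and 61.0 CPM in control and 87.3 and 88.8 CPM in depleted libraries, and upon CTCF depletion 0 of the 8 genes passed the thresholds in edgeR (0 in DESeq2, and 2 higher and 1 lower at an unadjusted p below 0.05). Among 10 mitochondrial partners, 1 was higher and 3 lower over conversion, and *SLC25A4*, an ADP/ATP carrier with 4.14 and 4.44 CPM in control and 14.6 and 14.8 CPM in depleted libraries, was the 1 gene called upon CTCF depletion. There, 0 of the 10 were called lower in edgeR and 0 in DESeq2, 2 were higher and 5 lower at an unadjusted p below 0.05, and the median was -0.14. Of all 14758 genes tested, 5705 had an adjusted p below 0.05 by edgeR upon CTCF depletion. The counts at an unadjusted p below 0.05 are therefore not read as a result about these lists.

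Of 10 genes for turnover and transcription of members, 9 passed the filter, and 3 were higher, 1 of which passed only through the libraries at 96 h, and 3 lower over conversion. Upon CTCF depletion 0 of the 9 passed the thresholds in edgeR and 0 in DESeq2, and 3 were higher and 0 lower at an unadjusted p below 0.05.

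**Figure D4:**
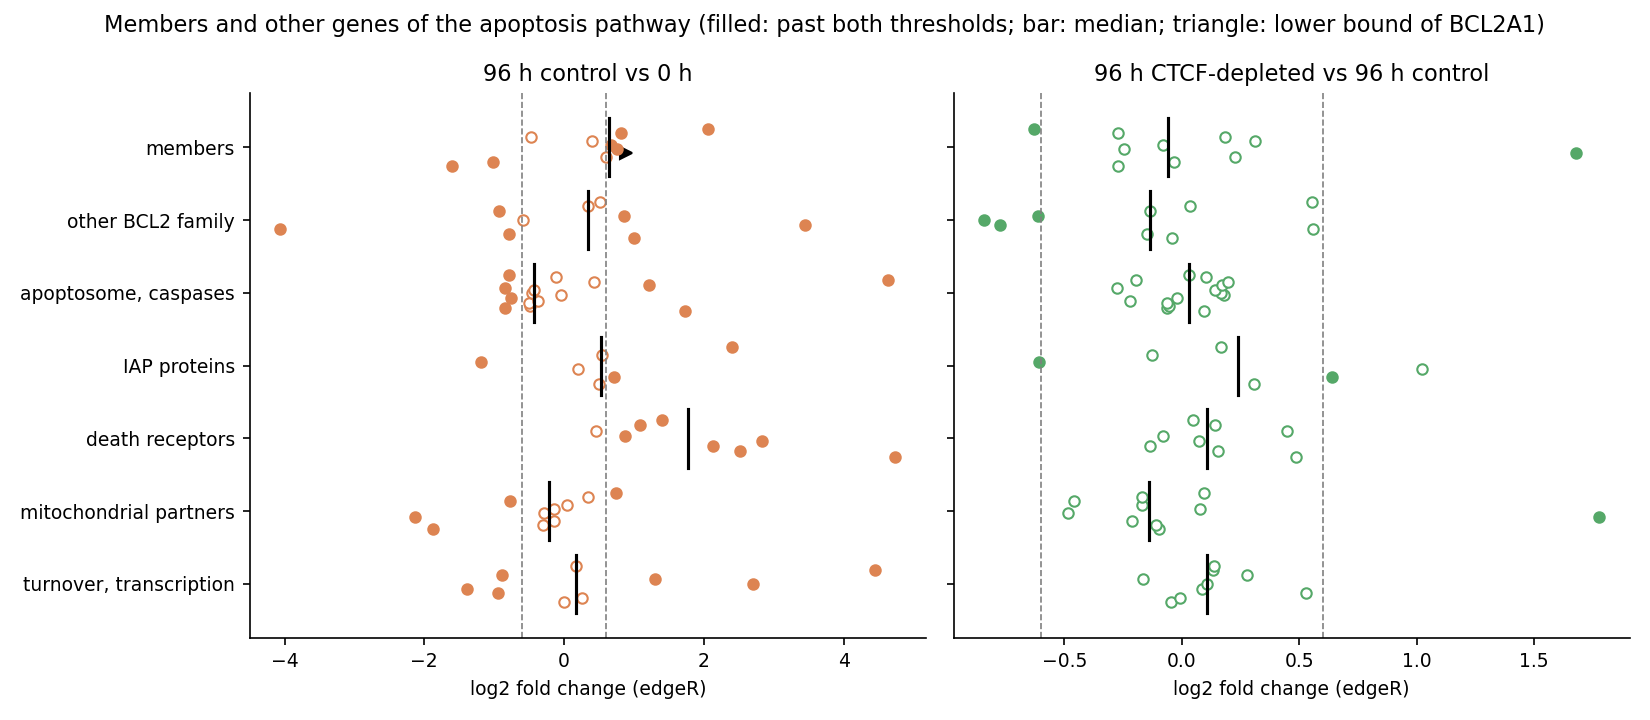
Log2 fold change of each tested gene in the 7 lists, over conversion (left panel) and upon CTCF depletion (right panel), with filled points past both thresholds, vertical bars for list medians and a triangle for the 96 h mean of *BCL2A1* against its 0 h floor. The median of the death receptor pathway over conversion stands at 1.77, and all list medians upon CTCF depletion lie between -0.14 and 0.24.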

How the data were processed

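RNA-seq libraries of 3 groups with 2 replicates each were analysed from the gene counts that the authors deposited. Per the submitters' processing notes, reads were aligned to hg38 with STAR 2.6.1d and counted with featureCounts 2.0.6. All tests used edgeR 4.0.16 under R 4.3.3 (filterByExpr, TMM factors, quasi-likelihood test, Benjamini-Hochberg adjustment over 14758 genes) in 1 fit of all 6 libraries, with tables and plots from Python 3.11.15, pandas 2.3.3 and matplotlib 3.10.9. The tested genes hold 99.9% of the counts of each library, and the common biological coefficient of variation was 3.96%. Levels between genes were scaled by the union of exons in GENCODE 44. Genes named outside the members were the other tested BCL2 family genes, the nearest tested neighbours and the 3 nearest profiles of members called upon CTCF depletion, and up to 4 called genes of each further list with the lowest adjusted p. Members and lists were chosen with earlier results of these data known. Of the planned lists, 1 list and 1 gene of another are not reported. Alternatives were RLE normalization, library totals alone, other filters, DESeq2 1.42.0, fewer libraries, a replicate block, other thresholds and other gene lengths. The pipeline was tested on simulated data. Floors cover counting error in the 0 h libraries only, and p-values measure the spread between these libraries.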

Additional observations from a re-analysis of the deposited data

Results flagged for a closer look

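With 2 libraries in each group, the test for single outlying samples could not be applied. The genes listed here differed between conversion with and without CTCF. The difference itself was tested, as the contrast of CTCF-depleted against 96 h control libraries in edgeR's quasi-likelihood test. Among the members, the log2 fold change in this contrast was 1.68 for *BCL2A1* and -0.63 for *BBC3*. Among other BCL2 family genes it was -0.77 for *BMF*, -0.84 for *BNIP3* and -0.61 for *BNIP3L*. Among genes with profiles near those of the members called, it was 1.64 for *PLEKHA1*, 1.44 for *RGS2*, 1.15 for *FBXO6*, -0.60 for *LOC100129550* and -0.62 for *CPNE8*. These 5 genes were picked for their profiles in the same libraries, so that their values are not independent of those of the members. The choice of *PLEKHA1*, *RGS2* and *FBXO6* also rests on the 0 counts of *BCL2A1* at 0 h and its entry through the depleted libraries alone. Among the further lists it was 0.64 for *BIRC2*, -0.61 for *BIRC5* and 1.78 for *SLC25A4*. With glmTreat against a log2 fold change of 0.6, the calls of *BMF* (adjusted p = 0.0195), *BNIP3* (0.190), *BIRC2* (0.861) and *FBXO6* (0.0177) were lost. Those of *BCL2A1* (0.108), *BBC3*, *BNIP3L*, *BIRC5*, *LOC100129550* and *CPNE8* were lost with glmTreat as well. The call of *BIRC5* was lost without 0 h replicate 1 (-0.57), 0 h replicate 2 (-0.57), 96 h control replicate 1 (-0.50) and CTCF-depleted replicate 2 (-0.53), and with RLE normalization (-0.59), library totals alone (-0.57), no filter (-0.57), at least 10 counts in every library (-0.59) and only the 4 libraries compared (-0.57). The call of *BNIP3L* was lost without any of the 6 libraries (-0.59 to -0.57) and with RLE normalization (-0.60), library totals alone (-0.58), no filter (-0.58), at least 10 counts in every library (-0.60) and only the 4 libraries compared (-0.58). That of *BCL2A1* was lost without any of the 6 libraries (adjusted p-values from 0.0131 to 0.125), with no filter and with a replicate block. The call of *BBC3* was lost without 0 h replicate 1 (-0.60), 0 h replicate 2 (-0.60), 96 h control replicate 1 (-0.49) and CTCF-depleted replicate 1 (-0.49), and with library totals alone (-0.59), no filter (-0.60) and only the 4 libraries compared (-0.60). That of *LOC100129550* was lost without 0 h replicate 1 (-0.57), 0 h replicate 2 (-0.57), 96 h control replicate 1 (-0.58), 96 h control replicate 2 (-0.56) and CTCF-depleted replicate 1 (-0.44, adjusted p = 0.0275), and with RLE normalization (-0.59), library totals alone (-0.56), no filter, at least 10 counts in every library or only the 4 libraries compared. That of *CPNE8* was lost without 0 h replicate 1 (-0.59), 0 h replicate 2 (-0.59), 96 h control replicate 2 (-0.54) and CTCF-depleted replicate 1 (-0.56), and with library totals alone (-0.58), no filter or only the 4 libraries compared. DESeq2 did not call *BNIP3* (adjusted p = 0.0517), *BNIP3L* (-0.60), *BIRC5* (-0.59) or *LOC100129550* (-0.59), and gave no adjusted p for *BCL2A1*, which entered the test through the depleted libraries alone. Whether IAA itself or the loss of CTCF underlies these differences was not tested.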

How the results depend on the processing

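Of 475 alternative values for log2 fold changes of members, 415 kept their direction and their side of the thresholds, 31 fell short of the thresholds, 23 newly passed them and 6 changed sign. For the other named genes, the numbers were 1506, 92, 20 and 3 of 1621. Over conversion with CTCF, 7124 genes were called (6690.0 to 7288 with 1 library left out) and 11112 when every adjusted p under 0.05 counted, whatever the fold change. The 5 members called higher became 7 at an adjusted p below 0.05, 4 with library totals alone and with glmTreat, 2 at an absolute log2 fold change above 1, and 3 to 6 with 1 library left out, with 3 without 0 h replicate 2 and without 96 h control replicate 1; the 2 called lower became 3 at an adjusted p below 0.05, with *BID*, and stayed at 2 elsewhere. Upon CTCF depletion, 1836 genes were called (1453 to 1836 with 1 library left out), 5705 at an adjusted p under 0.05, 642 with glmTreat and 845 at an absolute log2 fold change above 1. The 1 member called higher upon CTCF depletion became 0 without a filter, with at least 10 counts in every library (where *BCL2A1* was not tested), in DESeq2 (no adjusted p), with a replicate block, with glmTreat and, in a choice made after seeing the data, among the 9 members other than *BCL2A1*, 3 at an adjusted p below 0.05, and 0 to 0 with 1 library left out. The 1 member called lower became 0 with library totals alone, without a filter, with only the 4 libraries compared, with glmTreat and above 1, 4 at an adjusted p below 0.05, and 0 to 1 with 1 library left out. Over conversion without CTCF, 7742 genes were called (7436 to 7768), and the 4 members called higher became 7 at an adjusted p below 0.05, 5 with RLE normalization and with only the 4 libraries compared, 3 with glmTreat, 2 above 1 and 4 to 6 with 1 library left out. With the replicate block, 7090.0, 1818 and 7722 genes were called, and replicate differences of the groups were hardly correlated (-0.0194, 0.0109 and -0.0294). The log2 fold change of *BCL2L1* upon CTCF depletion became 0.0026 with library totals alone and ranged from -0.042 to 0.041 with 1 library left out (above 0 without 0 h replicate 1, 96 h control replicate 2 or CTCF-depleted replicate 1). With 1 library left out, *BAK1* ranged from -0.184 to 0.106 (above 0 without 96 h control replicate 1 or CTCF-depleted replicate 2), *BCL2L2* from -0.0535 to 0.039 (above 0 without CTCF-depleted replicate 1) and *BAD* from -0.324 to 0.138 (above 0 without 96 h control replicate 1) upon CTCF depletion, and *C15orf37* from -1.38 to 0.397 in CTCF-depleted against 0 h libraries (above 0 without CTCF-depleted replicate 2). The anti-apoptotic share was 49.2% to 49.8%, 37.5% to 38.1% and 42.6% to 43.9% in single libraries of the 3 groups, and 68.7%, 56.2% and 59.4% without length scaling. Library totals alone moved the median of all genes over conversion from 0.02 to -0.10, a shift of -0.12. The cause was not tested.

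At 17 or 18 counts in the libraries where it was highest, *BCL2A1* is limited by depth, and its 0 h level is known only as a bound. With a library left out, the lone library of its group is assumed to vary like the others. The libraries come from 1 subclone, transcripts do not give protein levels, and no group received IAA without the degron. The libraries were made with a stranded kit, the strand setting of the counting is not given, and 41.3% of the exon bases of *BCL2L1* overlap *ABALON* on the other strand.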
